A study of Mus musculus with 4 samples.

Results

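The Hox genes of the mouse were examined in RNA sequencing of day 6 retinal organoids, which are stem cell aggregates grown under conditions that favour retina. The set was chosen by name: every row of the deposited table whose symbol is Hox, a cluster letter from a to d and a paralog number. This gave 39 genes of 55426 rows, which is 11 genes in the Hoxa cluster, 10 in Hoxb, 9 in Hoxc and 9 in Hoxd. The 4 libraries fell into 2 untreated and 2 treated with doxycycline (Dox, 2 µg/ml for 6 days). Both groups came from the same line, named Rx:GFP Mettl3 KO, which carries a knockout of Mettl3 and a Dox-inducible HA-METTL3, and both were cultured with AGN at 0.1 µM, an agent the labels do not spell out. METTL3 is the catalytic subunit of the enzyme that writes N6-methyladenosine on RNA. EV stands in both groups' titles and is not explained there, so the labels leave unclear what was induced. All libraries share 1 line, and nothing in the labels says that the replicates of a group came from separate cultures, so p-values measure only the spread between these libraries.

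Hox genes encode homeodomain transcription factors that give cells of the hindbrain, spinal cord and trunk their position along the head-to-tail axis. They sit in clusters, and low-numbered paralogs are switched on earlier and nearer the head than high-numbered ones. The forebrain and the retina that grows out of it normally lie in front of the Hox domain, which is kept silent there by Polycomb complexes. Retinoic acid and the Cdx factors are known activators of Hox genes in posterior tissue.

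In GENCODE M21 (GRCm38, the build mm10 of the submitters' processing notes) the Hoxa cluster spans chr6:52155590-52260880, Hoxb chr11:96194316-96368256, Hoxc chr15:102921103-103036852 and Hoxd chr2:74668310-74765142. The 250 bases upstream of the start site are shown for the lowest-numbered member of each cluster that has an entry in the RefSeq promoter table (GRCm38.p6), because these are the members closest to the head end of the Hox order. They are followed by Mtx2, the nearest flanking gene listed at 1 FPKM or more in every library, which lies beside Hoxd. Sequences run 5′ to 3′ on the gene's strand, and capitals mark each CpG. Hoxa2 lies at chr6:52164832-52165081 on the minus strand, Hoxb1 at chr11:96365508-96365757, Hoxc4 at chr15:103034145-103034394, Hoxd1 at chr2:74762730-74762979 and Mtx2 at chr2:74825562-74825811, all 4 on the plus strand.
Hoxa2: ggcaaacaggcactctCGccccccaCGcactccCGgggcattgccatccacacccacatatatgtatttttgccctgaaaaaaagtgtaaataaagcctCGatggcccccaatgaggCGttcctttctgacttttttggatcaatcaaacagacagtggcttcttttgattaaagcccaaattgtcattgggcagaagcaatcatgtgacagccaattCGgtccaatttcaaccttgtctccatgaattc
Hoxb1: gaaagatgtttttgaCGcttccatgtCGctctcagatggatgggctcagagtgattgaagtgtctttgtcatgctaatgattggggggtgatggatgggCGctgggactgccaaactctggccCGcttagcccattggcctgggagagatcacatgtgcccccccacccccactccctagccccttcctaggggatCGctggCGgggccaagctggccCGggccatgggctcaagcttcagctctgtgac
Hoxc4: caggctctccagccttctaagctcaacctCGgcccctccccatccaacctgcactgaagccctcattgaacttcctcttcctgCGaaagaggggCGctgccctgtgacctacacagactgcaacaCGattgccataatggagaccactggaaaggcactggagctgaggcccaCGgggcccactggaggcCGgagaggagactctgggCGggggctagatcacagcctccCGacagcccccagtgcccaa
Hoxd1: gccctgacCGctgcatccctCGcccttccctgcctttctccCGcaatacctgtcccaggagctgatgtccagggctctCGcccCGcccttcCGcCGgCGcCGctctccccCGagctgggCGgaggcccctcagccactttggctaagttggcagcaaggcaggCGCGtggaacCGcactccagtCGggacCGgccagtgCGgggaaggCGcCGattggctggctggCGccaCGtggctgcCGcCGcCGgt
Mtx2: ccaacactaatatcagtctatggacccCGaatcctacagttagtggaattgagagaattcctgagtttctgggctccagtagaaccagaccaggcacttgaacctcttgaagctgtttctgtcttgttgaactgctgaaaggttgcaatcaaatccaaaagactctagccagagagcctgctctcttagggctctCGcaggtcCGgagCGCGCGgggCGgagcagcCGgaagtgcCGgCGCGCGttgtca
These 250 bases held 6 CpGs for Hoxa2, 7 for Hoxb1, 8 for Hoxc4 and 24 for Hoxd1, against 12 for Mtx2. Over the whole 300-base windows, which add 50 bases after the start, 24 Hox promoters of 22 genes were matched. Their median was 14.5 CpGs (range 4 to 45), against a median of 7 over all 32851 promoters in the table. The letters TATAAA, searched on both strands, occurred in 4 of the 24 Hox windows (16.7%) and in 13.6% of all windows.

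Hox transcripts were close to absent in every library. Of the 39 genes, 23 were listed at 0 in all 4 libraries, and none reached 0.1 FPKM (fragment counts scaled to transcript length and library size) in any library. The number above 0 was 9 and 7 in untreated replicates 1 and 2, and 5 and 8 in Dox replicates 1 and 2. The highest single value was 0.09 FPKM, for Hoxb2 in Dox replicate 2. In these bulk samples fewer cells with a transcript and less RNA per cell cannot be told apart. Because every Hox gene stayed below 0.1 FPKM, members are named here after their values were seen.

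**Figure D1:**
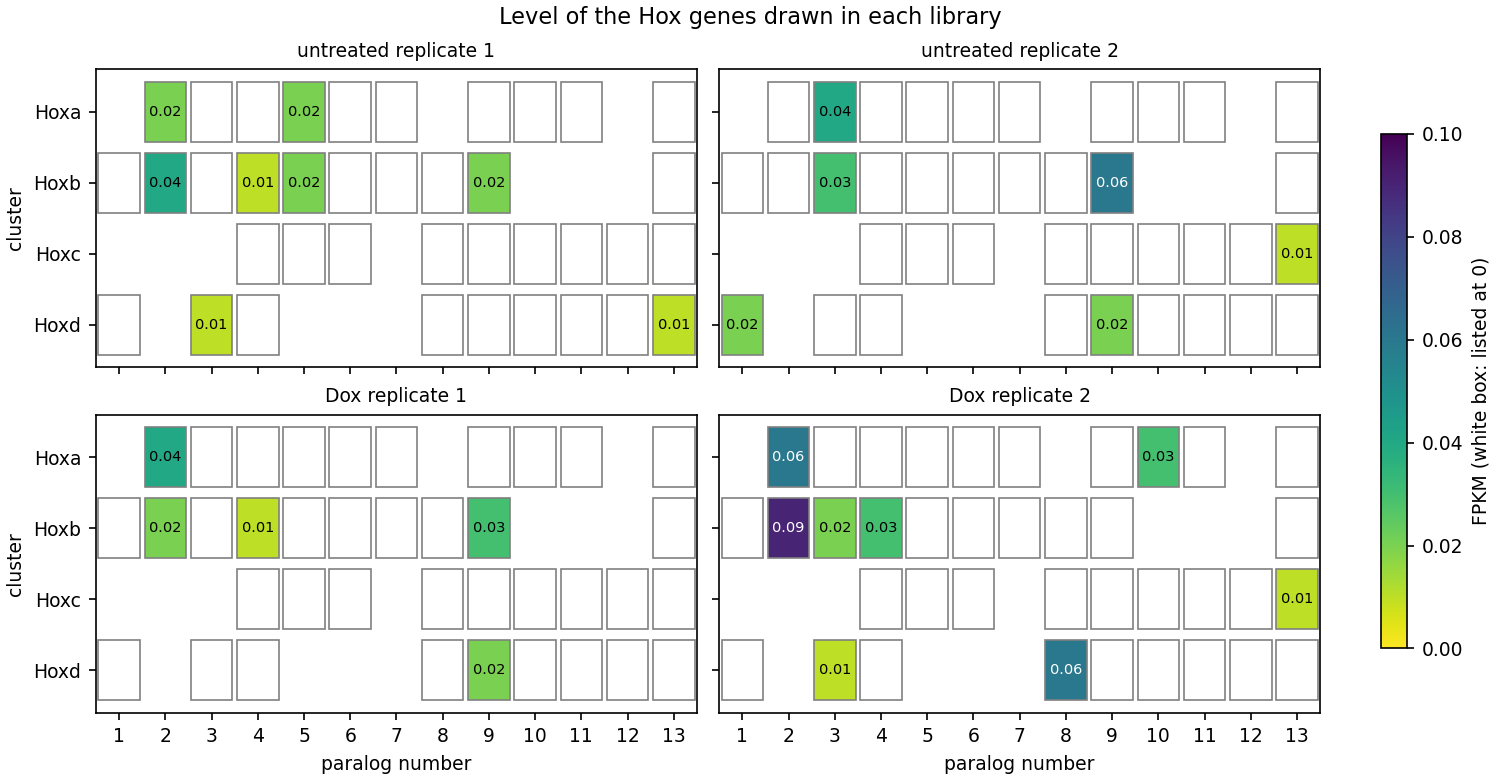
FPKM of 38 of the 39 Hox genes in each library, by cluster (rows) and paralog number (columns). White boxes are listed at 0, gaps are paralogs that a cluster lacks or that are not drawn, and the filled boxes do not exceed 0.09 FPKM in any library.

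At the depth of these libraries such values stand for at most 8.52 estimated fragments of a gene in a library, the value of Hoxb2 in Dox replicate 2 (4.08 on its shortest transcript). The steps between low values gave estimated depths of 31900000 fragments and 35000000 fragments for untreated replicates 1 and 2, and 31700000 fragments and 32700000 fragments for Dox replicates 1 and 2. On the longest annotated transcript of each Hox gene (874 to 3367 nt), 1 fragment was worth between 0.00914 and 0.0498 FPKM. A floor of 3 fragments corresponds to between 0.0274 and 0.149 FPKM, so a gene listed at 0 may still have been present up to that level. Of 156 values (39 genes in 4 libraries), 127 were listed at 0 and 7 stood for more than 3 estimated fragments, or 3 where the shortest transcript of each gene was used instead. Summed over the 39 genes on the longest transcripts, the estimate, rounded to whole fragments, was 13 fragments (95% exact Poisson interval 6.92 to 22.2) and 16 (9.15 to 26.0) in the untreated libraries. It was 8 (3.45 to 15.8) and 24 (15.4 to 35.7) in the Dox libraries. On the shortest transcripts the sums were 9.44 and 9.13 fragments untreated and 6.70 and 11.7 fragments with Dox, so the totals and the gap between the Dox libraries depend on the transcript assumed. The intervals cover counting error only, not the choice of transcript, and all 4 overlap one another. Of 23 housekeeping genes chosen after the values were seen 0 were listed at 0 in any library, and the lowest value was 0.52 FPKM. Being widely expressed genes, they cannot show whether a 0 for a gene at a few fragments is a true absence.

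The summed level of the 39 genes did not separate the groups. It was 0.18 and 0.2 FPKM in the untreated libraries and 0.12 and 0.31 FPKM in the Dox libraries. The lowest and the highest library were both Dox libraries. Averaged over the untreated libraries the sum was 0.19 ± 0.0141 FPKM (SD, n = 2), and over the Dox libraries 0.215 ± 0.134 FPKM (SD, n = 2), a log2 ratio of 0.18. Without Dox replicate 2 that ratio was -0.66, and without Hoxb2 it was -0.09, so its direction depends on 1 library and 1 gene. By cluster, Hoxa summed to 0.07 and 0.06 FPKM untreated and to 0.04 and 0.09 FPKM with Dox. Hoxb summed to 0.09 FPKM in both untreated libraries and to 0.06 and 0.14 FPKM with Dox. Hoxd summed to 0.02 and 0.04 FPKM untreated and to 0.02 and 0.07 FPKM with Dox. Hoxc, which holds only paralogs 4 and above, was the quietest, with 0.01 FPKM in untreated replicate 2 and Dox replicate 2 and 0 in the other libraries.

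The few fragments lay more often on low-numbered paralogs, a split made after the values were seen. Of the 8 genes of paralog groups 1 to 3, 7 were above 0 in some library, the exception being Hoxb1. This compares with 4 of 15 in groups 4 to 8 and 5 of 16 in groups 9 to 13. By cluster, a value above 0 in some library was listed for 5 of 11 Hoxa genes, 5 of 10 Hoxb genes, 1 of 9 Hoxc genes and 5 of 9 Hoxd genes. Genes of paralog groups 6, 7, 11 and 12 were listed at 0 throughout.

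Among the low-numbered paralogs, which pattern the hindbrain, Hoxb2 had 0.04 and 0 FPKM untreated, 0.02 FPKM in Dox replicate 1 and 0.09 FPKM in Dox replicate 2. The 2 groups overlapped. Its exons overlap those of Hoxb3os on the opposite strand, a row listed at 0 in all 4 libraries. Hoxa2, the Hox gene that reaches furthest forward in the hindbrain, was listed at 0.02 and 0 FPKM untreated and at 0.04 and 0.06 FPKM with Dox. Both Dox libraries lay above both untreated ones, on an estimated 0.99 and 0 against 1.95 and 3.01 fragments. Hoxa3 and Hoxb3, which act in the posterior hindbrain and the pharyngeal arches, were listed at 0.04 and 0.03 FPKM in untreated replicate 2, and Hoxb3 also at 0.02 FPKM in Dox replicate 2. Hoxd1 was listed at 0.02 FPKM in untreated replicate 2 only, and Hoxd3 at 0.01 FPKM in untreated replicate 1 and Dox replicate 2.

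The middle and high paralogs, which pattern the spinal cord, trunk and limbs, gave scattered values. Hoxb4 was listed at 0.01 and 0 FPKM untreated and at 0.01 and 0.03 FPKM with Dox. Hoxb9 was listed at 0.02 and 0.06 FPKM untreated and at 0.03 and 0 FPKM with Dox. Both genes overlapped between the groups. Hoxa5 and Hoxb5 each had 0.02 FPKM in untreated replicate 1 alone. Hoxd8 had 0.06 FPKM and Hoxa10 had 0.03 FPKM, both in Dox replicate 2 alone. Hoxd9 had 0.02 FPKM in untreated replicate 2 and in Dox replicate 1. The terminal genes Hoxc13 and Hoxd13 did not exceed 0.01 FPKM. No Hox gene was above 0 in all 4 libraries: 7 were so in 1 library, 5 in 2 and 4 in 3. In both Dox libraries 3 genes were above 0 (Hoxa2, Hoxb2 and Hoxb4), and in both untreated libraries 2, among them Hoxb9.

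No Hox gene was called different between the groups. The main test used limma on log2(FPKM + 1) for the 13931 genes whose mean reached 1 FPKM, of which 1297 (9.31%) passed an adjusted p of 0.05, 4.44% higher and 4.87% lower with Dox. None of the 39 Hox genes reached that mean, so 0 were tested there. Calls counted in the gene lists below come from this main test and are to be read against those shares. With no filter on low values, 745 of 27532 rows (2.71%; 1.22% higher and 1.49% lower) were called, and 0 of the 16 Hox genes with a value above 0. At an unadjusted p below 0.05 the count was also 0. Their lowest adjusted p was 0.368 in limma, for Hoxa2, with a log2 difference of 0.06 (SE 0.0239). Their log2 differences ran from -0.04 to 0.06, with a median of -0.0035, against -0.0045 over all rows in that fit. Because 1 FPKM is added before the log, values up to 0.09 FPKM can give only differences near 0. The narrow range of the Hox genes therefore says nothing about their fold changes. Untreated and Dox values were fully separate for 2 of the 16, among them Hoxa2, against 42.2% of all rows with a value above 0. With 2 libraries against 2 an exact permutation test cannot give a two-sided p below 0.333. Values of a few fragments leave little precision, and the tests do not show that the groups are alike.

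Most other rows of the clusters were also listed at 0. Inside the 4 clusters the table holds 46 further rows, among them Hotairm1, Hotair and the opposite-strand transcripts of the Hox genes, and 43 of them were listed at 0 in all libraries. The exceptions were Haglr (0.04 FPKM in untreated replicate 2 alone), the lincRNA Gm53 (0.27 and 0.42 FPKM untreated, 0.03 and 0.23 FPKM with Dox) and Gm11539. Gm11539 was listed at 3.82 and 4.83 FPKM untreated and at 3.18 and 3.09 FPKM with Dox (log2 difference -0.36, adjusted p = 0.183 in limma). It is a processed pseudogene, and reads of the gene it was copied from could have been assigned to it. Mature microRNAs of the clusters are not measured by this assay.

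Most neighbouring genes outside the clusters were expressed. Of the 24 protein-coding genes that flank the clusters, 3 on each side, 19 were at 1 FPKM or more in every library. The 20 tested also included Calcoco2, which was at 0.84 FPKM in Dox replicate 2. The 4 that stayed below 1 FPKM in all libraries were Evx1, Evx2, Ttll6 and Skap1, each the first gene beyond a cluster on its side. Evx1 and Evx2 are even-skipped homeobox genes that adjoin Hoxa and Hoxd. Evx1 was listed at 0.08 and 0.13 FPKM untreated and at 0.01 FPKM in both Dox libraries, and Evx2, 8.75 kb beyond Hoxd13, did not exceed 0.05 FPKM. On the other side of Hoxd, Mtx2, a mitochondrial outer-membrane protein gene 60.7 kb beyond Hoxd1, had 30.2 and 29.6 FPKM untreated and 32.9 and 28.1 FPKM with Dox (adjusted p = 0.912 in limma). Smug1, 116 kb beyond Hoxc4, ran from 14.9 to 16.06 FPKM. Hnrnpa1 and Hnrnpa3, genes of RNA-binding proteins, had the highest levels of the flanking genes, at 1486 FPKM or more and at 932 FPKM or more in every library. Of the 20 tested flanking genes 1 was higher with Dox and 0 lower, with a median log2 difference of 0.01. That gene was Skap2, 143 kb beyond the Hoxa cluster, with 3.29 and 3.33 FPKM untreated and 5.16 and 5.29 FPKM with Dox (log2 difference 0.53, adjusted p = 0.0333 in limma), and its call was lost in 8 of 13 other fits, among them each that left out a library and the one with a replicate block.

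**Figure D2:**
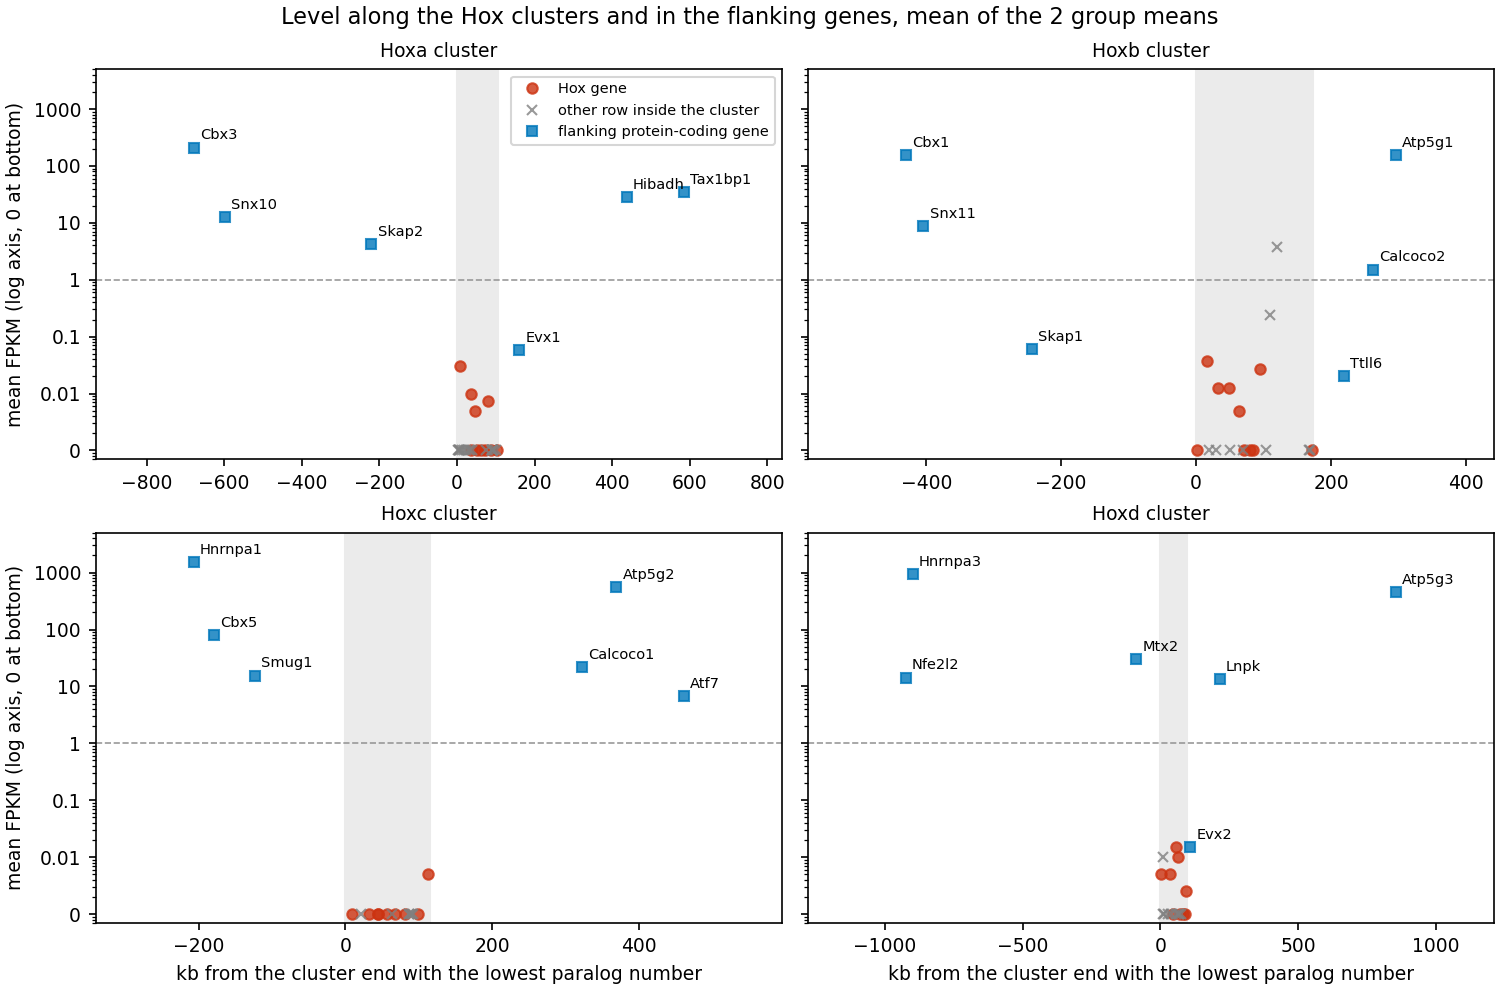
Mean FPKM (log axis, 0 drawn at the bottom) against the distance of each gene's midpoint from the cluster end with the lowest paralog number, with the cluster shaded and 38 of the 39 Hox genes drawn. Hox genes sit below 0.1 FPKM inside the shading, while 20 of the 24 flanking genes lie above the dashed line at 1 FPKM.

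Many other homeobox genes, and most other genes with similar promoter CpG counts, were listed at higher levels. The table holds 187 other protein-coding genes with homeobox in their description, a list drawn up after the Hox values were seen, and 66 of them (35.3%) were tested. Of the 187, 111 stayed below 1 FPKM in all libraries, and 34 of these were listed at 0 in all. Of the 66, 20 were higher and 17 lower with Dox, against 4.44% and 4.87% of all tested genes. The largest differences included those of Rax (6.78), Six6 (6.42) and Hmx1 (5.43), homeobox genes of the developing eye. Among other genes whose promoter window held between 9 and 22.75 CpGs, the quartiles of the Hox promoters, 75.3% of 5644 had a mean of at least 1 FPKM. The share with a mean at or below that of the highest Hox gene (0.0375 FPKM, Hoxb2) was 7.64%. The quartiles rest on the 22 Hox genes with a promoter entry, and Hoxb2 is not among them. Among all 21899 protein-coding rows 19.9% were listed at 0 in all libraries, against 59.0% of the Hox genes. A highest value of at most 0.09 FPKM, which holds for every Hox gene, was found in 30.3% of the protein-coding rows.

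**Figure D3:**
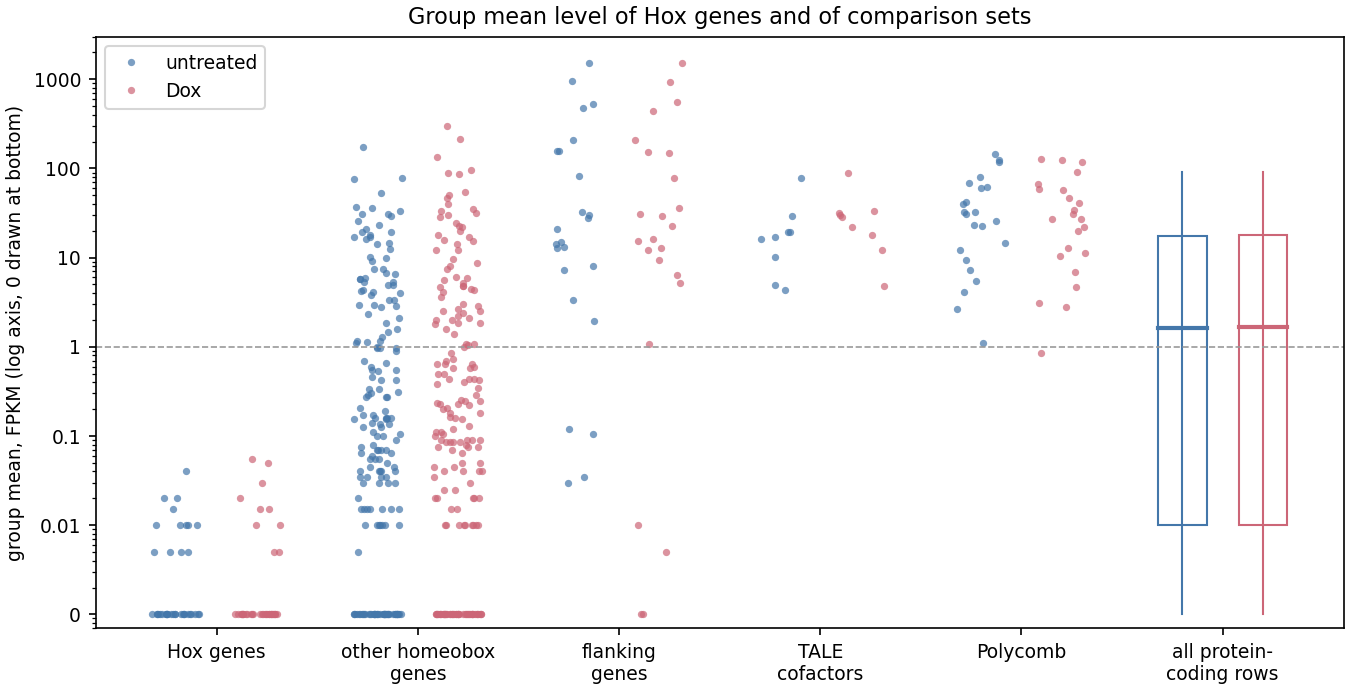
Group mean FPKM (log axis, 0 drawn at the bottom) of 38 Hox genes and of genes of 4 comparison sets, 1 point per gene and group, and of all protein-coding rows (box: quartiles and median; line: 5th to 95th percentile). The Hox genes lie below 0.1 FPKM in both groups, and the Polycomb and TALE cofactor genes lie mostly between 1 and 100 FPKM.

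Genes of Hox cofactors, of Polycomb and of MLL complexes were expressed in every library, with 1 Polycomb gene, Phf19 (0.81 to 1.4 FPKM), below the tested range. All 9 TALE homeobox genes (Meis, Pbx and Pknox), whose proteins bind DNA together with Hox proteins, were tested, and 3 were higher with Dox and 0 lower (median log2 difference 0.19). Meis1 was listed at 4.56 and 4.10 FPKM untreated and at 31.5 and 34.8 FPKM with Dox (log2 difference 2.68, adjusted p = 1.17e-04 in limma). Meis2 (0.77) and Pknox2 (0.59) were the others, and the Pknox2 call was lost in 4 of 14 other fits. Of 23 Polycomb genes, whose products keep Hox clusters silent, 22 were tested, with a median log2 difference of -0.05. Of the 22, 1 was higher and 1 lower, against 4.44% and 4.87% of all tested genes. Ezh2, the H3K27 methyltransferase, was listed at 119 and 118 FPKM untreated and at 127 FPKM in both Dox libraries. The 2 called genes were Aebp2 (log2 difference 0.42, adjusted p = 0.0484 in limma) and Ring1 (-0.36, adjusted p = 0.0445), and both calls were lost when each library in turn was left out, with the replicate block, with rescaling to TPM and with 3 other settings. Of the 10 MLL complex and H3K27 demethylase genes, which act against Polycomb, all were tested, 0 were called and the median was -0.04. At an unadjusted p below 0.05 the count was 1 (Psip1, log2 difference -0.27, adjusted p = 0.0699 in limma). Psip1 and Dpy30 had the highest levels of that list, and Dpy30 ran from 159 to 207 FPKM.

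Most genes that mark the head end of the axis were expressed in both groups, 8 of 13 at 1 FPKM or more in every library. Of the 13 anterior neural genes 11 were tested, 5 were higher with Dox and 5 lower, with a median log2 difference of -0.11. The higher ones included Rax, Six6, Six3 and Lhx2, genes of the eye field. Rax was listed at 1.12 and 0.82 FPKM untreated and at 201.1 and 228.0 FPKM with Dox (log2 difference 6.78, adjusted p = 2.93e-05 in limma). Lhx2 had 26.7 and 24.3 FPKM untreated and 277 and 324 FPKM with Dox, and Six3 had 7.70 and 7.05 FPKM untreated and 83.0 and 109 FPKM with Dox. The lower ones were Emx2, Lhx5, Fezf2, Otx1 and Otx2, genes of the dorsal forebrain, diencephalon and midbrain as well as the eye. Emx2 was listed at 78.2 and 75.8 FPKM untreated and at 11.01 and 6.26 FPKM with Dox (log2 difference -3.06, adjusted p = 0.00116). Otx2, which marks the brain in front of the hindbrain, remained high in both groups, at 173 FPKM in both untreated libraries and at 137 and 131 FPKM with Dox (log2 difference -0.36, adjusted p = 0.0254). The Otx2 call was lost when each library in turn was left out, without the filter or the trend, and with the replicate block. All 6 retina markers were tested, 5 were higher with Dox and 0 lower (median log2 difference 4.23). Six6 was at 0.01 FPKM in both untreated libraries, which thus lack a defining marker of the labelled retinal tissue. Pax6 was above 100 FPKM in all 4 libraries.

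Posterior genes were mostly below the tested range. Of 12 hindbrain and isthmus genes 4 were tested and 2 were higher and 1 lower, with a median log2 difference of 0.63. Pax2 (log2 difference 4.43, adjusted p = 1.86e-04 in limma) and Fgf8 (0.78, adjusted p = 0.00904) were higher, and both are also expressed in the developing eye and forebrain. The Fgf8 call was lost without each library in turn and without the filter. Wnt1, of the isthmus and dorsal neural tube, was lower (-2.35), with 9.42 and 8.77 FPKM untreated and 1.01 and 0.95 FPKM with Dox. Egr2, which defines hindbrain segments where Hoxa2 and Hoxb2 act, had 0.16 and 0.13 FPKM untreated and 0.19 and 0.22 FPKM with Dox, below the tested range. Of 10 trunk and presomitic genes 2 were tested. Uncx was lower (-1.68), with 3.14 and 2.68 FPKM untreated and 0.24 and 0.20 FPKM with Dox. Gdf11 was not called (adjusted p = 0.111 in limma), at 19.1 and 19.3 FPKM untreated and 14.9 and 16.4 FPKM with Dox. Of 13 Hox-linked and ParaHox homeobox genes 12 stayed below 1 FPKM, and Gbx1 was the one tested and higher, from 0.02 and 0.05 FPKM to 3.61 and 5.09 FPKM (adjusted p = 0.00113). The Cdx genes, Hox activators of the trunk, did not exceed 0.04 FPKM, and Gbx2, a gene of the anterior hindbrain, was at 0.16 and 0.15 FPKM untreated and at 0.06 and 0.09 FPKM with Dox.

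**Figure D4:**
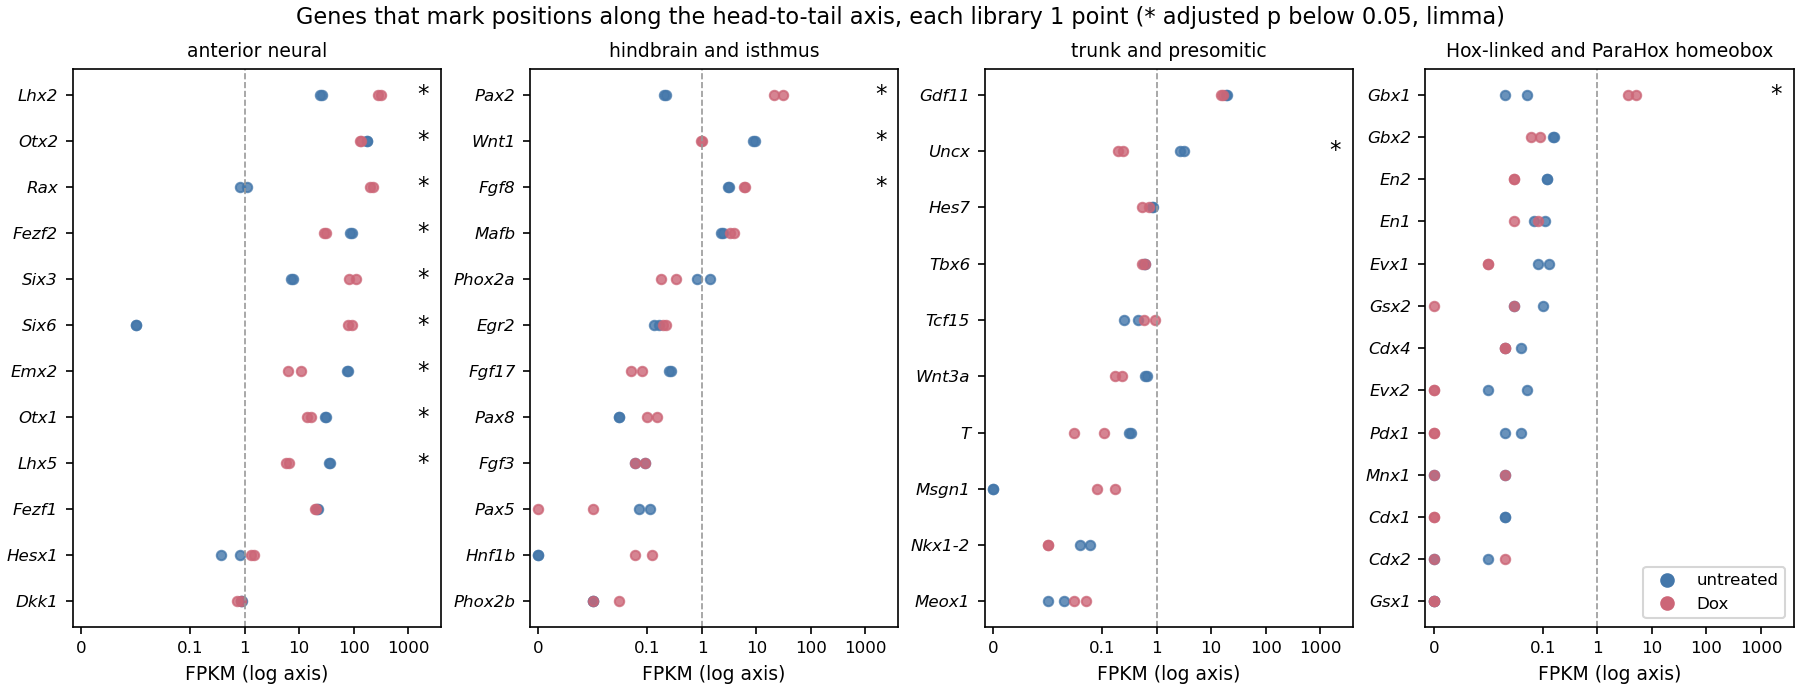
FPKM (log axis, 0 drawn at the left edge) of genes of 4 positional lists (1 anterior neural gene is not drawn), with 1 point per library and a star where limma called the gene. Anterior neural genes lie mostly above the dashed line at 1 FPKM in both groups, and most posterior and Hox-linked genes lie below it in both.

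Of the 17 retinoic acid genes 10 were tested, 4 were higher and 1 lower (median log2 difference 0.24). Crabp1, a retinoic acid binding protein gene, was listed at 65.2 and 71.7 FPKM untreated and at 324 and 339 FPKM with Dox (log2 difference 2.26, adjusted p = 1.04e-04 in limma). Aldh1a1 (1.44), a retinoic acid synthesis gene, Stra6 (0.76) and Rdh10 (0.70) were also higher, and Crabp2 was lower (-0.61). Of these 5 calls only those of Crabp1 and Aldh1a1 held in every fit that tested them: Rdh10 was lost in 5 of 13 fits, Stra6 in 4 of 14 and Crabp2 in 5 of 14, each including fits that left out a library. Rarb, a direct target of retinoic acid, ran from 0.24 to 0.29 FPKM, and Cyp26a1, the enzyme that degrades it and another direct target, was at 0.1 and 0.07 FPKM untreated and at 0.2 and 0.18 FPKM with Dox. Neither was tested, being below 1 FPKM. Lists for other cell types that could bring in Hox transcripts were also read. Of 9 neural crest genes all were tested, and 0 were higher and 6 lower, led by Sox10 (12.8 and 13.4 FPKM untreated, 0.82 and 0.43 FPKM with Dox, log2 difference -3.12). Tfap2b (-2.45), Pax3 (-2.33) and Foxd3 (-2.23) followed. Of the 6, only the Ets1 call was lost in other fits, without the filter and without each library in turn. The other 3 genes were not called. Snai2 (log2 difference 0.45, adjusted p = 0.0966 in limma) and Tfap2a (0.14) lay higher with Dox, and Pax7 (-0.13) lay lower. In the fit without the trend 1 neural crest gene was called higher. The summed level of that list was 47.7 and 45.8 FPKM untreated and 12.8 and 11.1 FPKM with Dox. Of 10 mesoderm and endoderm genes 1 was tested (Twist1, log2 difference 0.44, adjusted p = 0.0914 in limma) and 0 were called by limma, with 1 at an unadjusted p below 0.05. Hand1, of the same list, was below the tested range, at 0.28 and 0.14 FPKM untreated and 1.6 and 0.95 FPKM with Dox. That list summed to 4.45 and 3.7 FPKM untreated and to 7.15 and 5.98 FPKM with Dox. The part of these cells in the few Hox fragments was not tested.

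Mettl3 itself was listed at 40.3 and 38.0 FPKM untreated and at 45.2 and 46.4 FPKM with Dox (log2 difference 0.22, adjusted p = 0.122 in limma), a gene-level value that does not separate the inducible copy from the knocked-out locus. Per library the values of the table summed to between 793308 and 866239 FPKM, and 23334 to 23871 rows were above 0.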

How the data were processed

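Poly(A)-selected RNA of 4 mouse organoid libraries was sequenced in pairs of reads. The authors deposited FPKM values, 1 column per library, rounded to 2 decimals. STAR, Cuffdiff and mm10 are named in the submitters' processing notes, and their versions, the annotation and the strand setting are not given in the sources used here. Strand matters for the 16 Hox genes whose exons overlap another gene in GENCODE M21.

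FPKM was analysed as log2(FPKM + 1), which understates changes of low genes, with limma 3.58.1 in R 4.3.3 (lmFit, eBayes with trend, two-sided, Benjamini-Hochberg over all tested genes). Genes needed a mean of at least 1 FPKM. Depth came from low values (under 0.5 FPKM) of single-transcript genes of 450 to 1200 nt. The depth and length correction with the largest share of whole fragments were taken. That share was 77.8% to 79.5% within 0.1. Values spread evenly would give 20% at a depth fixed beforehand, so the contrast is not an independent check of the depth. The scripts were tested on simulated data. The members and lists were chosen with earlier results of these data known. Context genes were named by rule: up to 4 called genes a list with the largest differences, or the 2 highest where fewer than 2 were called; further ones, such as Ezh2, Egr2 and Rarb, were picked after their values were seen. Alternatives covered the pseudocount, the filter, scaling, the variance model, the replicate block and each library left out. Some members of the gene sets are counted but are not reported or drawn singly here.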

Additional observations from a re-analysis of the deposited data

How the results depend on the processing

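Hox genes were called in none of the 15 limma fits, but only the fit without a filter tested any of them (16), so the other fits say nothing about them. The number of Hox genes detected was 0 in every library at a minimum of 0.1 FPKM and at 1 FPKM, against 5 to 9 above 0. The log2 ratio of the summed Hox level ran from -0.66 to 0.71 over the 4 fits that left out a library. Over all genes, 619 were called higher and 678 lower, which became 336 and 409 without a filter and 408 and 413 with a minimum mean of 5 FPKM; the cause was not tested. The 4 fits without 1 library had between 262 and 320 genes higher and between 331 and 377 lower, where the lone library of a group is assumed to vary like the others. Of 102 tested genes in the context lists together 18 were higher and 15 lower (9 lower of 79 with a minimum of 5 FPKM). Of these 33 genes 23 kept their call in every fit that tested them, and 0 changed sign. A fit with a replicate block gave 532 higher and 602 lower. Same-numbered libraries did not deviate together (correlation -0.043), so the numbers are not shown to pair them. At these depths the Hox values stand for a few estimated fragments a gene, which limits their precision.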
